A study of Mus musculus with 1814 samples.

Results

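The transcripts of 9 genes of homologous recombination, Brca1, Brca2, Palb2, Bard1, Brip1, Rad51ap1, Rad54l, Xrcc2 and Rad54b, were followed in single germinal center B cells of mice. The genes were taken by name, and all 9 were found in both deposited gene tables, 9 of 25125 genes in the table of experiments 1, 3 and 4 and 9 of 15177 genes in the table of experiment 5. Cells had been index-sorted into plates and sequenced by SmartSeq2, a full-length method that does not count molecules, and 1328 kept cells with a zone were used. Levels are given as CPM, the counts of a gene summed over the cells of a group and scaled to the total of all genes in that group.

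Germinal centers are the sites in lymphoid organs where B cells mutate their antibody genes. Cells divide and mutate in the dark zone and are selected in the light zone. Experiments 3 and 4 held cells labelled Dec positive (Dec+) at 12, 30, 46 and 60 h. At these times experiment 3 gave 43, 62, 73 and 69 cells of the dark zone, and its light zone gave 46, 22, 11 and 21. Experiment 4 gave 55, 67, 54 and 78 cells of the dark zone, and its light zone gave 26, 22, 17 and 5. Experiment 1 held Dec+ light zone cells at 12 h, 42 Dec+ dark zone cells at 30 h and 80 light zone cells labelled Dec negative (Dec-) at 12 h. Experiment 5 held cells of the genotypes KO (62 of the dark zone, 61 of the light zone), TA (22 of the light zone and the rest of the dark zone) and WT (82 of the dark zone, 41 of the light zone), all labelled Dec positive and with no time given. The labels do not state what Dec refers to, from which event the hours count, which allele KO and TA carry or whether it is limited to some cells. The plates of experiment 5 carry the name Ccnd3, the gene of cyclin D3. No label names an animal, so p-values measure only the spread between the summed groups, which may be technical.

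Ccnd3 reads stood at 89.3 CPM in KO, 287.3 CPM in TA and 477 CPM in WT dark zone cells, and at 78.6, 118.9 and 350 CPM in KO, TA and WT light zone cells. Its reads alone do not show what was altered. The median count per cell was 417105, 208013, 292109 and 155485 in experiments 1, 3, 4 and 5. The B cell markers Cd79a, Cd79b, Ms4a1 and Pax5 were above 0 in each of the 25 groups of cells. Germinal center B cell markers summed to 1233 to 2692 CPM, plasma cell markers to 785 to 5882 CPM, T cell markers to 64.03 to 350 CPM and myeloid markers to 0 to 37.2 CPM.

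Homologous recombination mends broken DNA and stalled replication forks by copying the sister chromatid, and it therefore works mainly in S and G2 phase. The BRCA1-BARD1 complex acts at the start, PALB2 links BRCA1 to BRCA2, and BRCA2 prepares the single-stranded DNA for the search for the sister copy. The helicase BRIP1 binds BRCA1. XRCC2, RAD51AP1 and the DNA translocases RAD54L and RAD54B assist the pairing with the sister strand. Germinal center B cells divide fast and carry DNA lesions made by the AID deaminase.

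On the mouse build GRCm38 (mm10), in the GENCODE annotation, Brca1 spans positions 101488764 to 101551955 and Brip1 86058138 to 86201193 of chromosome 11, both on the minus strand. Brca2 spans 150522630 to 150570329 (plus strand) and Xrcc2 25689812 to 25705825 (minus strand) of chromosome 5. Rad54l spans 116094264 to 116123690 (minus strand) and Rad54b 11558922 to 11615805 (plus strand) of chromosome 4. Palb2 lies on chromosome 7 from 122107262 to 122132985, Bard1 on chromosome 1 from 71027498 to 71103146 and Rad51ap1 on chromosome 6 from 126923050 to 126939587, all on the minus strand. Exons of Rad54l overlap those of Lrrc41 on the other strand over 721 bases, and exons of Rad54b overlap those of Fsbp on the same strand over 2068 bases. Palb2 (414 bases) and Brca2 (41 bases) overlap predicted genes on the other strand. Whether counting used strand is not given in the sources used here, so reads in these stretches cannot be assigned with certainty.

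Since the levels of the 9 genes followed the phase of the cells, as the results on phase show, their promoters were searched for motifs that mark many cell cycle promoters. RefSeq promoter windows (build GRCm38.p6, 250 bases before to 50 bases after each start) matched 7 of the 9 genes in 8 windows. Xrcc2 and Rad54b had no entry. The searched letters, on both strands, were the E2F forms TTTCCCGC, TTTCGCGC, TTTGCCGC and TTTGGCGC, the CHR element TTTGAA and the NF-Y box CCAAT. Windows of 2 of 7 genes, Bard1 and Brca2, held E2F letters, against 2.26% of all 32851 windows and 2.605% of genes. CCAAT stood in windows of 5 of 7 genes, against 41.1% of all genes, and TTTGAA in that of 1 gene, Bard1, against 20.2%. The stretches that hold these matches in 4 of the genes are printed here 5′ to 3′ along the gene, each from upstream of its start, with the matches in capitals (CCAAT on the other strand reads ATTGG, and TTTCCCGC reads GCGGGAAA).
Bard1, chr1:71103154-71103222, minus strand: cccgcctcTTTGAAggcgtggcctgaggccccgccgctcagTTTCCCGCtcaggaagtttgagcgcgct
Brca2, chr5:150522433-150522480, plus strand: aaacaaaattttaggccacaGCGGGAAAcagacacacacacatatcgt
Rad51ap1, chr6:126939599-126939837, minus strand: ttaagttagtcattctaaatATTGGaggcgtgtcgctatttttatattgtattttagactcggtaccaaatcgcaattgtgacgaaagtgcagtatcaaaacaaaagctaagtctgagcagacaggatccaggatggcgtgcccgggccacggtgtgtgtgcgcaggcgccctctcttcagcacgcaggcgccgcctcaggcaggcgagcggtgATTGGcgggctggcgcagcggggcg
Brip1, chr11:86201203-86201312, minus strand: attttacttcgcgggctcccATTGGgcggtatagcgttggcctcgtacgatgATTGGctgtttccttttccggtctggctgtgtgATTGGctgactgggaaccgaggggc
The Brip1 stretch carries 3 ATTGG boxes, 99, 67 and 34 bases before the start. A match is a description of these letters and not a bound site.

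All 9 genes were higher in cells called S than in cells called G1 in each of the 4 experiments. The phases are the authors' calls, made from the RNA of the same cells. Rad51ap1 and Brip1 are in the S phase list that Seurat, a package named in the submitters' notes, ships. Whether the authors used that list is not given in the sources used here, so the levels by phase are described without a test. Each phase held at least 52 cells in each experiment.

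Rad54l had 4.86, 127.99 and 104.1 CPM in G1, S and G2M cells of experiment 1, 11.9, 130 and 98.4 CPM in experiment 3, 10.6, 149.4 and 80.6 CPM in experiment 4, and 10.0, 130 and 107.7 CPM in experiment 5. It was thus low in G1, highest in S and still high in G2M every time. Brip1, whose helicase works with BRCA1, had 1.29, 98.2 and 45.3 CPM in experiment 1, 4.69, 61.5 and 46.7 CPM in experiment 3, 2.73, 70.4 and 34.3 CPM in experiment 4, and 2.98, 113.5 and 50.2 CPM in experiment 5. The order of its phases was the same as for Rad54l. Rad51ap1 had 0.790, 61.3 and 20.8 CPM in experiment 1, 1.22, 63.1 and 79.6 CPM in experiment 3, 4.46, 99.8 and 93.5 CPM in experiment 4, and 0.0774, 83.9 and 57.9 CPM in experiment 5. Its G1 level was near 0 throughout, while S and G2M changed places in experiment 3.

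Brca2 kept more reads in G1 than the genes above. It had 32.2, 59.7 and 42.2 CPM in G1, S and G2M cells of experiment 1, 15.9, 53.6 and 37.8 CPM in experiment 3, 32.0, 86.7 and 22.3 CPM in experiment 4, and 10.2, 118.6 and 37.8 CPM in experiment 5. In experiment 4 its G2M level lay below its G1 level. Brca1, at the head of the pathway, had 0.0132, 66.7 and 171.1 CPM in experiment 1, 3.47, 25.7 and 4.91 CPM in experiment 3, 7.71, 102.96 and 27.4 CPM in experiment 4, and 3.25, 73.9 and 67.1 CPM in experiment 5. Of the G1 cells of experiment 1, 1 cell (0.826%) held a Brca1 count, and G2M stood above S in that experiment alone. Its partner Bard1 had counts in no G1 cell of experiment 3, which allows a share of up to 2.22% of cells. In S and G2M cells of that experiment Bard1 had 17.2 and 19.5 CPM. Such limits, and the intervals given here for shares of cells, cover counting error only. The Poisson intervals given below for levels treat each read as independent, which these reads are not. They leave out the spread between cells and plates and are too narrow.

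At a threshold of 2-fold (log2 ratio with 1 CPM added to each level), 8 of 9 genes were higher in S than in G1 in experiment 1, where 19.3% of all genes with at least 10 CPM in a phase were. The counts were 9, 8 and 9 of 9 in experiments 3, 4 and 5, against 12.2%, 12.6% and 12.6% of all genes. The genes below the threshold were Brca2 in experiment 1 (log2 0.87) and Palb2 in experiment 4 (0.99). The median log2 ratio of the 9 genes was 3.89, 3.34, 3.69 and 3.57 in experiments 1, 3, 4 and 5, against medians of 0.04, 0.00, -0.07 and -0.09 over all genes.

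G2M cells also stood above G1 cells. At 2-fold 8, 8, 6 and 9 of 9 genes were higher in experiments 1, 3, 4 and 5, where 21.2%, 11.1%, 11.3% and 12% of all genes were. The genes under 2-fold were Brca2 in experiment 1, Brca1 in experiment 3, and Brca2, Palb2 and Xrcc2 in experiment 4. Between S and G2M the genes differed less, with median log2 ratios of S over G2M of 0.95, 0.34, 0.99 and 0.27. At 2-fold 4, 1, 4 and 3 of 9 genes were higher in S, against 15.4%, 7.53%, 6.82% and 11.3% of all genes. Brca2, Palb2, Brip1 and Rad54l were higher in S than in G2M in all 4 experiments, and each of the other 5 genes was higher in G2M in at least 1.

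**Figure D1:**
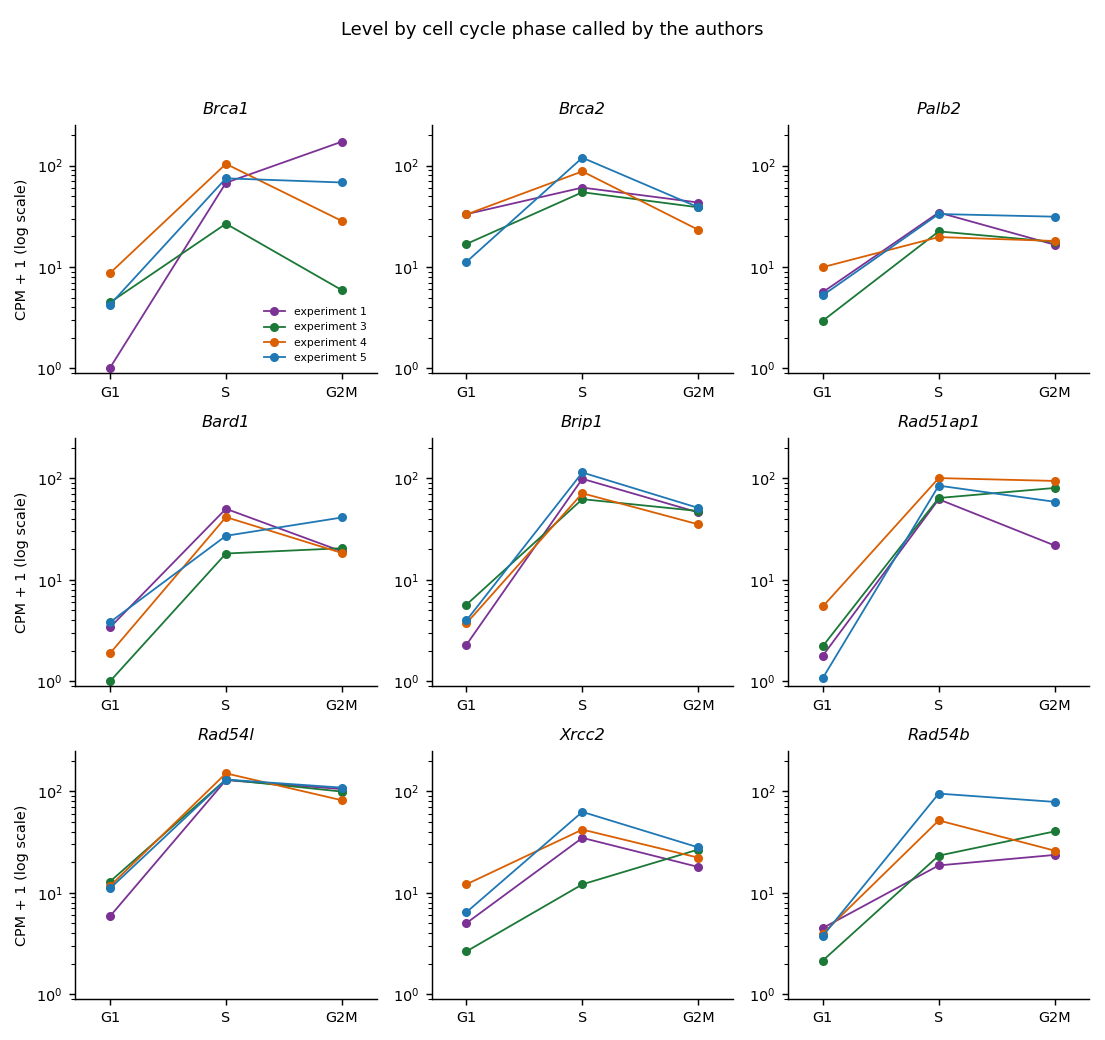
Level of each of the 9 genes (CPM + 1, log axis) in cells called G1, S and G2M, with 1 line per experiment (experiments 1, 3, 4 and 5). Every line runs upward from G1 to S, for Rad54l for example to between 127.99 and 149.4 CPM in S, against 4.86 to 11.9 CPM in G1.

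The same contrast was seen cell by cell, counted over cells with at least 10000 counts. This left out 1 G1 cell of experiment 3, and 1 S cell and 4 G2M cells of experiment 5. A G1 cell held a count of at least 1 in 0.446, 0.299, 0.286 and 0.188 of the 9 genes on average in experiments 1, 3, 4 and 5. An S cell held 3.42, 2.68, 3.27 and 2.44 of them, and a G2M cell 2.94, 2.34, 2.24 and 2.11. At least 1 of the 9 genes was detected in 37.2%, 93.9% and 84.6% of G1, S and G2M cells of experiment 1 and in 22.4%, 84.6% and 77.9% of those of experiment 3. Experiment 4 gave 21.9%, 92.04% and 74.5%, and experiment 5 gave 14.9%, 84.3% and 88.9%. S cells were deeper, with a median of 498163 counts in experiment 1, against 345341 counts in G1 cells. With every cell thinned to 10000 counts, G1, S and G2M cells of experiment 1 gave 15.7%, 82.6% and 69.2%, and those of experiment 3 gave 11.9%, 72.6% and 61.1%. The shares were 15.2%, 86.7% and 65.1% for experiment 4, and 9.94%, 77.5% and 80.2% for experiment 5. The share in G1 was the lowest in each experiment after thinning too. Thinning sets the same total of reads per cell, and not the same number of molecules.

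By group, the genes detected per cell ranged widely, also between groups with a like share of cells outside G1. The fewest, 0.677 of the 9 genes per cell, were found in KO dark zone cells, of which 22.6% were called S or G2M. The most, 2.96 per cell, were found in the dark zone cells of experiment 4 at 30 h, of which 77.6% were called S or G2M. Groups with nearly that share held fewer, with 1.296 per cell in the dark zone cells of experiment 4 at 46 h (75.9% called S or G2M) and 1.69 per cell in TA dark zone cells (77.2%). Light zone cells of experiment 3 at 12 h held 1.96 per cell with 54.3% called S or G2M.

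**Figure D2:**
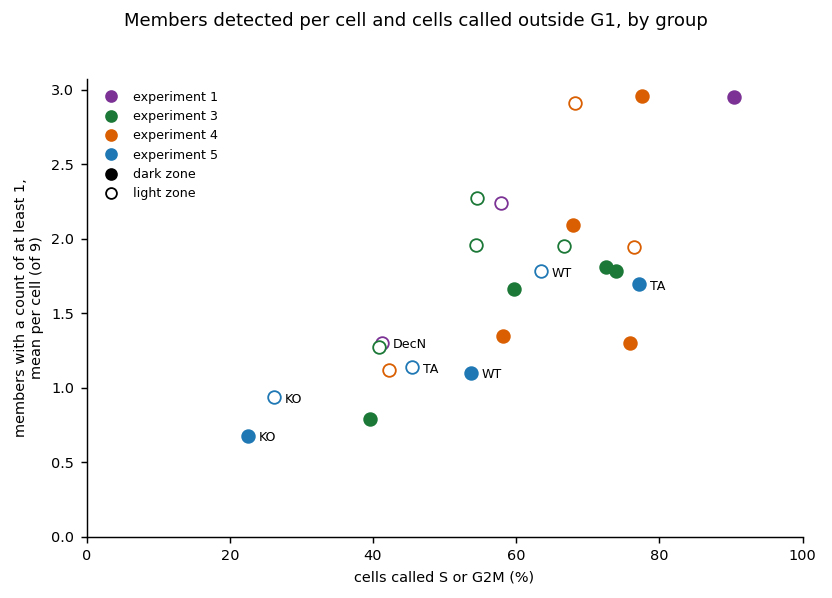
Mean number of the 9 genes with a count of at least 1 per cell (vertical axis) against the percentage of cells called S or G2M (horizontal axis), with 1 point for each group of at least 10 cells, colored by experiment, filled for the dark zone and open for the light zone. Groups of like share spread widely, for example 2.96 and 1.296 genes per cell in dark zone cells of experiment 4 at 30 and 46 h, of which 77.6% and 75.9% were called S or G2M. Cells were not thinned here, and depth differed between the groups.

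FUCCI, a fluorescent reporter of the cell cycle, was read by the sorter and does not depend on the RNA. Cells of experiments 3 and 4 were split at the median FUCCI intensity (arbitrary units) of their experiment into equal groups called FUCCI-high and FUCCI-low here. Rad54b, a DNA translocase, had 35.5 CPM in FUCCI-high and 1.41 CPM in FUCCI-low cells of experiment 3, and 37.7 and 18.4 CPM in FUCCI-high and FUCCI-low cells of experiment 4. Rad51ap1 had 76.9 CPM in FUCCI-high and 10.7 CPM in FUCCI-low cells of experiment 3, and 105.8 and 32.6 CPM in those of experiment 4. Both genes were higher in FUCCI-high cells in both experiments. In experiment 3 all 9 genes were higher in FUCCI-high cells and 8 of 9 by at least 2-fold, against 6.67% of all genes, with a median log2 ratio of 2.17. In experiment 4, 7 of 9 were higher and 4 of 9 by at least 2-fold, against 4.38% of all genes, with a median of 1.00. Brca1 (50.6 CPM in FUCCI-high and 51.4 CPM in FUCCI-low cells), Brca2 (47.9 and 51.7 CPM) and Brip1 (40.5 and 38.2 CPM) were about level there. Cells called G1 made up 12.7% of FUCCI-high and 65.3% of FUCCI-low cells in experiment 3, and 14.3% of FUCCI-high and 50.3% of FUCCI-low cells in experiment 4.

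Dark zone sums were compared with light zone sums in 7 pairs from the same experiment and time, 4 from experiment 3 and 3 from experiment 4. None of the 9 genes passed the test (0 of 9), against 0.309% of the 10669 genes tested with edgeR's quasi-likelihood test and Benjamini-Hochberg adjustment at 0.05 (19 genes higher and 14 lower in the dark zone). At an unadjusted p under 0.05 the count was also 0 of 9, against 9.22% of all genes. The median log2 fold change of the 9 genes was 0.05 and that of all genes 0.24. In such sums, fewer cells with a transcript and less RNA per cell cannot be told apart.

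Among the genes at the head of the pathway, Brca1 had 8.79, 15.97 and 71.5 CPM (lowest, median and highest of 7 sums) in the dark zone, and 9.30, 17.9 and 61.4 CPM in the light zone. Brca2 had 15.2, 36.4 and 57.8 CPM in the dark zone, and 14.9, 25.3 and 144.1 CPM in the light zone. The zones overlapped over most of the range for Brca1. For Brca2 the 2 highest light zone sums, at 63.5 and 144.1 CPM, lay above every dark zone sum of the 7 pairs. The unpaired dark zone sum of experiment 4 at 60 h had 71.7 CPM. The dark zone was higher in 3 of 7 pairs for each gene. Palb2 had 7.31, 12.0 and 18.7 CPM in the dark zone and 3.496, 10.3 and 17.04 CPM in the light zone, and Bard1 had 0, 13.8 and 52.6 CPM in the dark zone and 0, 5.80 and 72.7 CPM in the light zone. Their fitted log2 fold changes were -0.02 for Brca1, 0.05 ± 0.52 (SE) for Brca2, 0.48 ± 0.78 for Palb2 and 0.79 ± 1.64 for Bard1.

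Of the genes that act in strand pairing, Rad51ap1 had 16.4, 70.2 and 81.5 CPM in the dark zone, and 15.6, 80.2 and 163.6 CPM in the light zone. Rad54l had 38.9, 81.3 and 103.15 CPM in the dark zone, and 57.5, 89.2 and 131.04 CPM in the light zone. Both overlapped widely, and their log2 fold changes were -0.10 ± 0.40 and -0.32 ± 0.28. Xrcc2 had 2.06, 17.4 and 26.3 CPM in the dark zone and 0, 18.7 and 53.95 CPM in the light zone, and its log2 fold change was -0.00.

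The largest fitted differences were those of Rad54b and Brip1, and neither passed the test. Rad54b had 18.3, 24.3 and 50.6 CPM in the dark zone, and 1.15, 20.5 and 25.3 CPM in the light zone. The dark zone was higher in 5 of 7 pairs, and the 3 lowest light zone sums, at 1.15, 2.09 and 2.85 CPM, were those of experiment 3 at 46, 60 and 30 h. The log2 fold change was 1.61 ± 0.78 (p = 0.060, adjusted p = 0.561 by edgeR with Benjamini-Hochberg adjustment). Brip1 had 16.04, 39.6 and 60.7 CPM in the dark zone and 0.450, 14.4 and 77.7 CPM in the light zone, again with the dark zone higher in 5 of 7 pairs and the ranges overlapping. Its log2 fold change was 1.301 ± 0.81 (adjusted p = 0.655 by the same test). These values turned on the experiment. Without experiment 3 the log2 fold change was 0.42 for Rad54b and 2.87 for Brip1, and without experiment 4 it was 2.70 for Rad54b and 0.28 for Brip1.

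**Figure D3:**
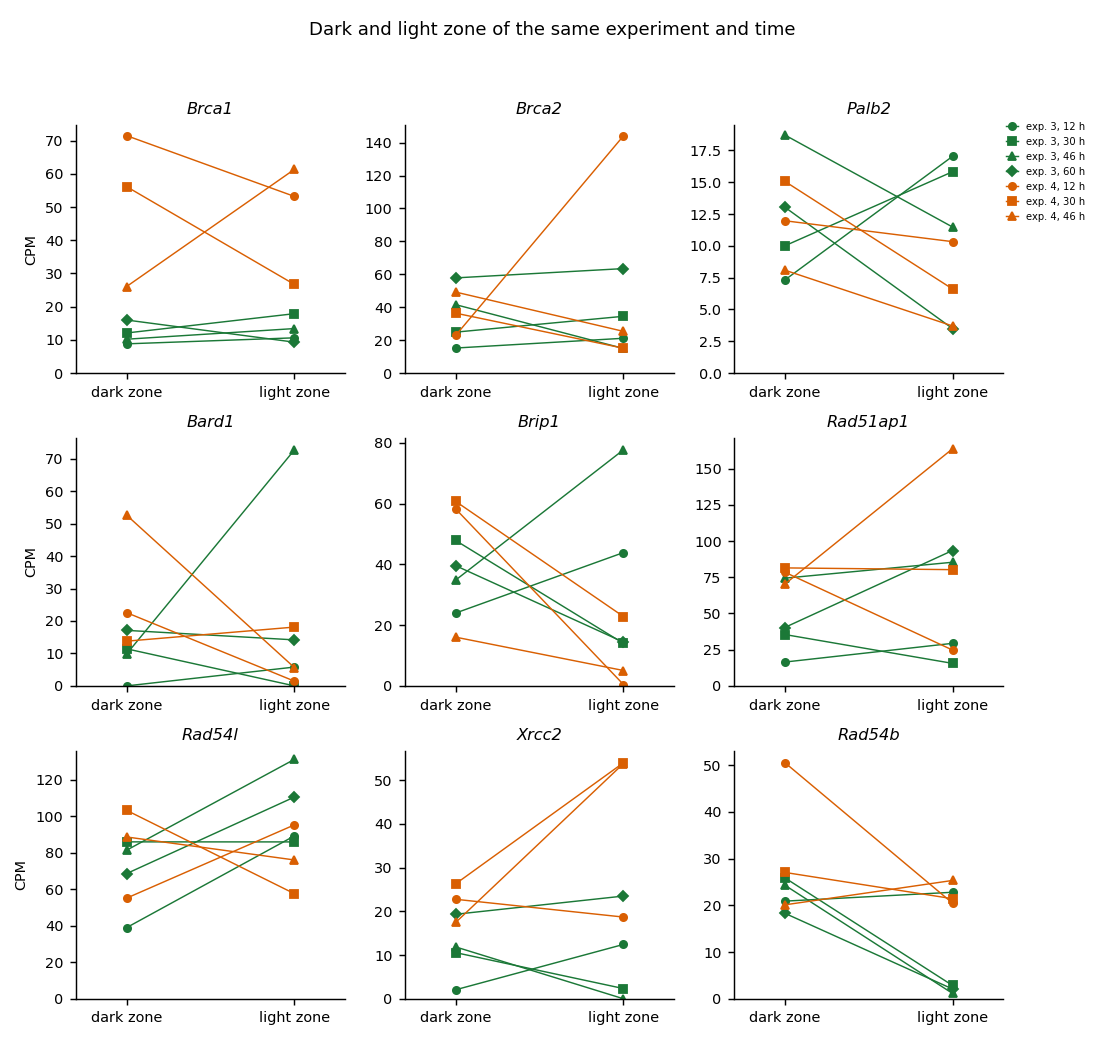
Level (CPM) of the 9 genes in the dark zone (left) and the light zone (right), with 1 line for each of the 7 pairs of the same experiment and time. Lines run both up and down in every panel; Rad54b is higher in the dark zone in 5 of 7 pairs and Brca1 in 3 of 7.

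Among cells of 1 phase the zones were compared again over 12 sums of experiments 3 and 4. In each of G1, S and G2M, 0 of 9 genes passed edgeR's quasi-likelihood test with Benjamini-Hochberg adjustment, against 0.0186%, 0% and 0% of the 10754 genes tested. At an unadjusted p under 0.05 the counts were 1, 0 and 0 of the 9 genes, against 9.71%, 6.03% and 7.63% of all genes. The gene in G1 was Rad54b. It had 1.72 and 4.13 CPM in G1 cells of the dark zone in experiments 3 and 4 (1 of 89 and 2 of 76 cells) and 0 CPM in those of the light zone (0 of 46 and 0 of 29 cells, which allows shares of up to 6.52% and 10.3%). The value rests on 3 cells with a count, and its adjusted p was 0.188 with edgeR and 0.00398 with DESeq2. Within S cells Rad54b had 27.6 and 53.5 CPM in the dark zone, and 11.5 and 41.2 CPM in the light zone (log2 0.66 ± 0.89, adjusted p = 1 by edgeR).

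A wider list of 44 genes of the pathway, 43 of them in the table, also held no gene that passed the zone test (0 of 43), with a median log2 fold change of 0.30 and 33 of 43 above 0, against 66.2% of all genes above 0. At an unadjusted p under 0.05 the count was 6 of 43, against 9.22% of all genes. The largest fold changes of the list were those of Top3a (log2 2.39 ± 1.19), which encodes a topoisomerase, Slx4 (2.09 ± 0.72), a nuclease scaffold, and Rad51d (2.08 ± 0.90), and none of these passed.

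Across time, 0 of 9 genes passed in any of the 6 comparisons with 12 h (17 sums, 11662 genes, edgeR's quasi-likelihood test with Benjamini-Hochberg adjustment and experiment as block). The sums were those of Dec+ cells of experiments 1, 3 and 4. Experiment 1 gave a light zone sum at 12 h and a dark zone sum at 30 h. A deposited group column places that dark zone sum at 36 h. All genes called were 0% at 30, 46 and 60 h in the dark zone, and 0%, 0.472% and 0.12% at 30, 46 and 60 h in the light zone. At an unadjusted p under 0.05, 1, 0 and 1 of the 9 genes were called at 30, 46 and 60 h in the dark zone, against 2.19%, 4.3% and 1.66% of all genes. In the light zone 0, 1 and 1 of the 9 were called in this way, against 3.45%, 11.5% and 7.03% of all genes.

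In the dark zone Rad54l had 38.9, 85.9, 81.3 and 68.5 CPM at 12, 30, 46 and 60 h in experiment 3, and 55.1, 103.15, 88.6 and 114.1 CPM in experiment 4. The level at 12 h was the lowest in both experiments. The log2 fold change at 30 h was 1.11 ± 0.44 (p = 0.024, adjusted p = 1 by edgeR). This fit also took the dark zone sum of experiment 1, with 97.4 CPM. With an experiment left out the log2 fold change was 1.01 to 1.33. Brca2 had 15.2, 24.8, 41.6 and 57.8 CPM at the same times in experiment 3, and 22.9, 36.4, 49.2 and 71.7 CPM in experiment 4. Each time lay above the one before it in both experiments, and the log2 fold change at 60 h was 1.79 ± 0.82 (p = 0.047, adjusted p = 1 by edgeR). Cells called G1 in these dark zone groups made up 60.5%, 40.3%, 27.4% and 26.1% in experiment 3, and 41.8%, 22.4%, 24.1% and 32.1% in experiment 4, at 12, 30, 46 and 60 h. The part of the phase shares in these values was not tested.

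Brca1 in the dark zone had 8.79, 12.1, 10.2 and 15.97 CPM in experiment 3, and 71.5, 56.2, 26.1 and 50.8 CPM in experiment 4. The experiments differed at every time by more than any change with time in experiment 3. The median log2 fold change of the 9 genes in the dark zone was 0.33 at 30 h, 0.95 at 46 h and 0.94 at 60 h, with 8, 6 and 8 of 9 above 0, against medians of 0.01, -0.01 and 0.03 over all genes.

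In the light zone Rad51ap1 had 29.4, 15.6, 85.4 and 93.5 CPM at 12, 30, 46 and 60 h in experiment 3, and 24.8, 80.2 and 163.6 CPM at 12, 30 and 46 h in experiment 4. Both experiments were higher at 46 h than at 12 h. Its log2 fold change was 1.93 ± 0.65 at 46 h (p = 0.010, adjusted p = 0.222 by edgeR, 0.0272 by DESeq2) and 1.99 ± 0.76 at 60 h, where only 1 sum was large enough (p = 0.0205, adjusted p = 0.563 by edgeR). The sums at 46 h held 11 and 17 cells. The medians of the 9 genes in the light zone were -0.08, 0.29 and 0.36 at 30, 46 and 60 h, against -0.10, -0.30 and -0.27 over all genes.

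**Figure D4:**
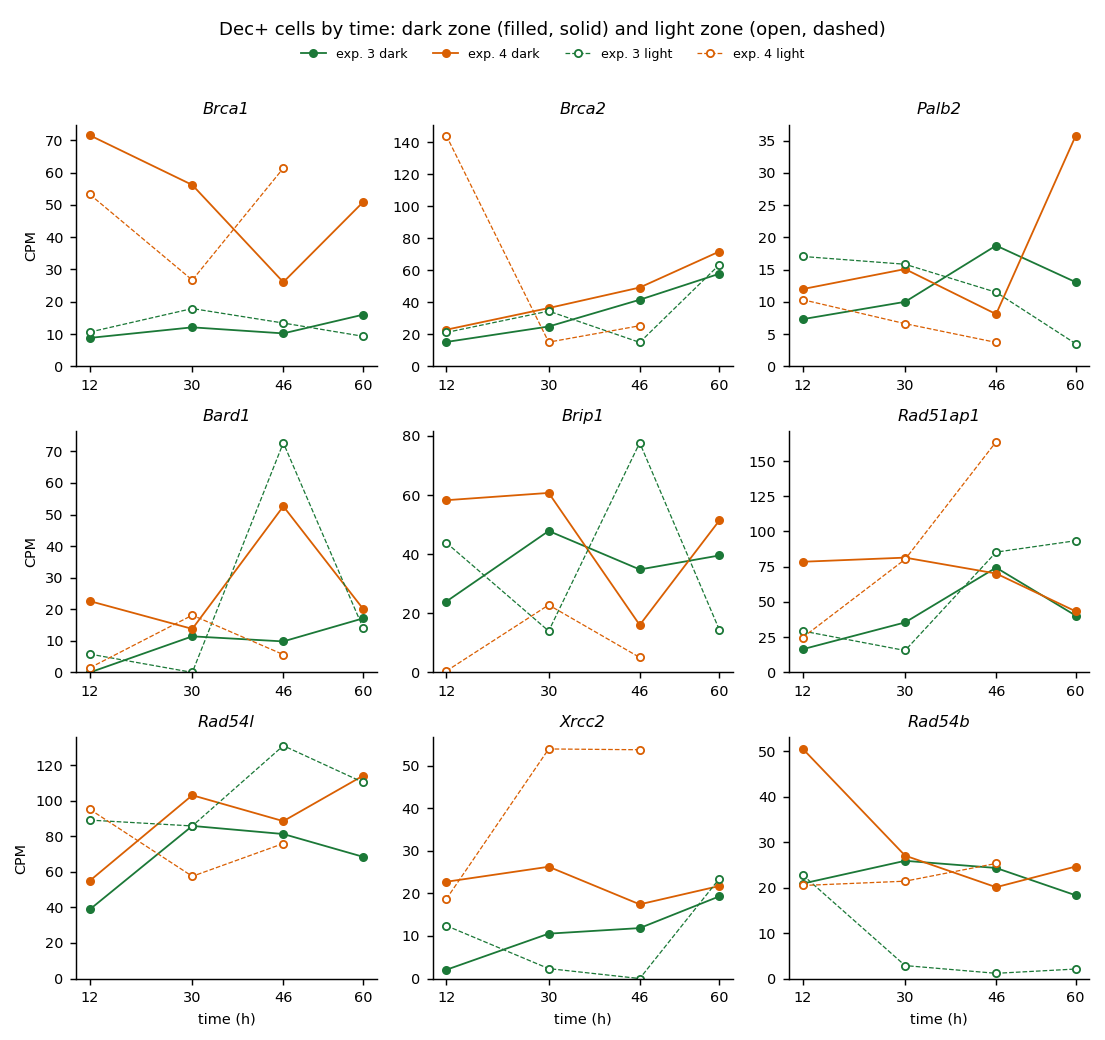
Level (CPM) of the 9 genes in Dec+ cells at 12, 30, 46 and 60 h in the dark zone (filled points) and the light zone (open points) of experiments 3 and 4; the light zone of experiment 4 ends at 46 h. Brca2 in the dark zone goes up at each time, reaching 57.8 and 71.7 CPM at 60 h in experiments 3 and 4.

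Dec+ and Dec- cells were compared in the light zone at 12 h in experiment 1, without a test because both groups come from 1 experiment. Palb2, the link between BRCA1 and BRCA2, had 26.5 CPM (exact Poisson 95% interval 25.7 to 27.4) in Dec+ cells and 5.34 CPM (4.73 to 6.01) in Dec- cells. It was higher in Dec+ cells on 3 of 3 plates, with a log2 ratio of 2.12 (0.93 without plate GC2). Brca2 had 35.8 CPM (34.8 to 36.8) in Dec+ cells and 78.03 CPM (75.6 to 80.5) in Dec- cells. Its log2 ratio was -1.10 and it was lower in Dec+ cells on 3 of 3 plates, but the mean of per cell CPM gave 0.38, the other direction. Brca1 came close to 2-fold, with 41.3 CPM in Dec+ cells and 82.4 CPM in Dec- cells (log2 -0.98). Of the Brca1 counts in Dec- cells, 53.2% came from 1 cell, and 18.7% of Dec+ and 18.75% of Dec- cells held a count. Its log2 ratio was -1.53 to 0.01 with a plate left out and -0.92 to -0.03 under the other alternatives. The log2 ratios of the other genes were 0.72 for Rad51ap1, -0.43 for Xrcc2, 0.28 for Bard1, 0.12 for Rad54l, 0.03 for Brip1 and 0.01 for Rad54b. Palb2 and Brca2 were the only 2 of the 9 genes past 2-fold, 1 higher (19.8% of all genes) and 1 lower (13.3%), and the median of the 9 was 0.03, against 0.12 over all genes. Without plate GC3 the median was 0.72.

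Taken over the 9 genes, the summed level was 324.95 CPM in Dec+ cells and 366 CPM in Dec- cells. At least 1 of the genes was detected in 75.9% of Dec+ cells (Clopper-Pearson 95% interval 68.7 to 82.2) and in 47.5% of Dec- cells (36.2 to 58.98), and in 56.02% and 40% after thinning to 10000 counts. Dec+ cells were deeper (median 443288 counts, against 346376 in Dec- cells) and less often called G1 (42.2%, against 58.8% in Dec- cells). Because the shares and the levels point in different directions, no order of the groups is read from the shares.

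In experiment 5 most of the 9 genes were lowest in KO dark zone cells. There was 1 experiment per genotype, so no test was made, but each of the 4 plates held all genotypes and values are given per plate. Summed over the 9 genes, the level was 101.6 CPM in KO, 531 CPM in TA and 326.4 CPM in WT dark zone cells. At least 1 gene was detected in 30.6% of KO cells (Clopper-Pearson 95% interval 19.6 to 43.7), 68.3% of TA cells (58.3 to 77.2) and 46.3% of WT cells (35.3 to 57.7). Thinning left out 1 TA and 2 WT cells with under 10000 counts, and over the cells that remained the shares were 25.8%, 61% and 47.5% for KO, TA and WT cells.

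Rad54l had 13.2 CPM (exact Poisson 95% interval 10.96 to 15.7) in KO cells, 99.2 CPM (94.8 to 103.9) in TA cells and 59.1 CPM (54.8 to 63.7) in WT cells of the dark zone. On plates 1 to 4 it had 2.90, 26.96, 23.5 and 1.83 CPM in KO cells, 122.8, 112.4, 145.7 and 32.3 CPM in TA cells, and 24.3, 31.7, 56.1 and 121.3 CPM in WT cells. KO was below WT on all 4 plates, while TA was above WT on 3. Palb2 had 1.61 CPM in KO cells (0.965, 5.86, 0 and 1.10 CPM on plates 1 to 4), 25.1 CPM in TA cells and 37.7 CPM in WT cells (25.2, 54.2, 37.2 and 28.3 CPM on those plates). The plates of KO and WT cells did not overlap. Rad54b had 8.74 CPM in KO cells (9.65, 1.17, 9.90 and 11.6 CPM on plates 1 to 4), 79.7 CPM in TA cells and 51.7 CPM in WT cells (26.1, 71.9, 36.2 and 64.2 CPM), and KO and WT plates were again apart. The share of all genes with KO and WT plates apart was not computed, so this is not read as a result. In TA cells Rad54b had 144.007, 42.4, 59.6 and 86.2 CPM on the 4 plates, above WT on 3 of them.

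The BRCA1 partners were less even between plates. Brca1 had 9.97 CPM in KO, 71.3 CPM in TA and 33.3 CPM in WT dark zone cells, and Brip1 had 9.12, 73.4 and 40.5 CPM in KO, TA and WT cells. KO was below WT on 3 of 4 plates for each. Bard1 had 8.69 CPM in KO, 14.2 CPM in TA and 53.3 CPM in WT cells, and KO was below WT on 3 of 4 plates. Rad51ap1 had 12.9 CPM in KO, 46.99 CPM in TA and 26.2 CPM in WT cells, and Xrcc2 had 15.2, 37.1 and 16.7 CPM in KO, TA and WT cells. Xrcc2 was thus at about the same level in KO and WT cells.

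Brca2 stood apart from the other genes. It had 22.2 CPM (19.3 to 25.4) in KO cells, 83.5 CPM (79.4 to 87.8) in TA cells and 7.74 CPM (6.23 to 9.52) in WT cells of the dark zone. TA cells had 110.99, 44.5, 75.1 and 110.4 CPM on plates 1 to 4, against 28.4, 8.21, 0 and 0 CPM in WT cells. TA was above WT on all 4 plates (log2 3.27). KO cells, at 0, 59.8, 22.1 and 15.7 CPM, were above WT on 3 of 4 (log2 1.41, and 0.79 without plate 2). Only 3 of 82 WT dark zone cells held a Brca2 count, against 6 of 62 KO cells and 20 TA cells (19.8%).

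Over the 9 genes, KO against WT in the dark zone gave 6 genes at least 2-fold lower (17.5% of all genes) and 1 higher (14%), with a median log2 ratio of -2.04 and plate medians between -3.81 and -1.297. The median over all genes was -0.13. It was -1.05 without plate 4 and -2.61 without plate 1. TA against WT gave 3 genes at least 2-fold higher (9.79% of all genes), Brca1, Brca2 and Xrcc2, and 1 lower (12.8%), Bard1. The median was 0.82, with plate medians between -0.19 and 2.00 and -0.04 over all genes. TA set directly against KO, a comparison added after the data were seen, gave 8 of 9 genes at least 2-fold higher (18.7% of all genes) and a median of 2.72, between 2.09 and 3.21 on the plates. These comparisons share their WT or KO cells.

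**Figure D5:**
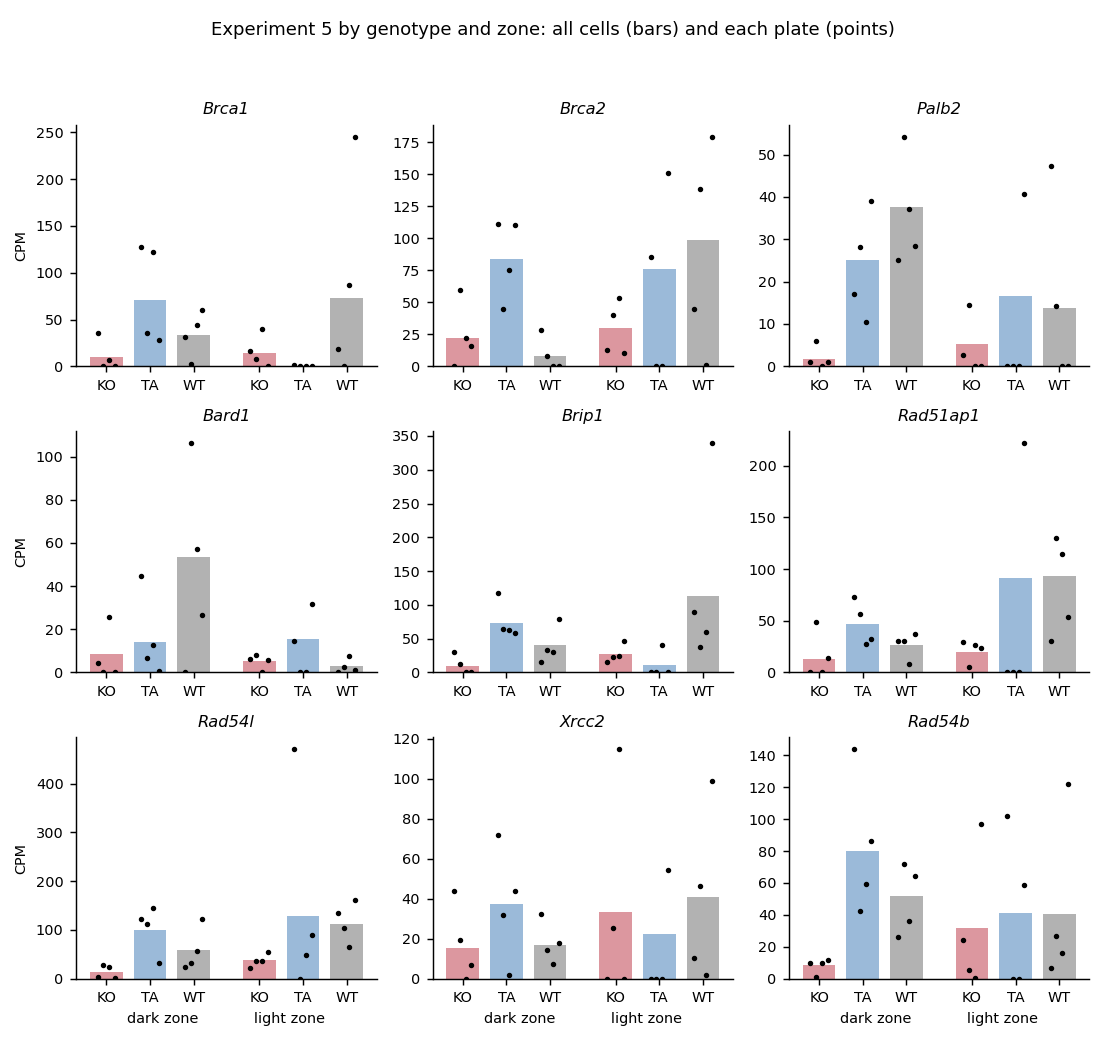
Level (CPM) of the 9 genes in KO, TA and WT cells of the dark zone and the light zone in experiment 5; bars are all cells of a group and points are the 4 plates. In the dark zone the KO bar is below the WT bar for 8 of 9 genes; Brca2, at 22.2 CPM in KO and 7.74 CPM in WT cells, is the exception.

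The genotypes also differed in the share of cells by phase. Cells called S made up 3.23% of KO, 45.5% of TA and 24.4% of WT dark zone cells, and cells called G1 77.4%, 22.8% and 46.3% of KO, TA and WT cells. Within G1 the 9 genes summed to 29.3 CPM in KO, 48.1 CPM in TA and 31.9 CPM in WT dark zone cells. Within G2M they summed to 382 CPM in KO (12 cells), 489 CPM in TA (32 cells) and 527 CPM in WT cells (24 cells). Within S only 2 KO cells were found, with 107.3 CPM, against 769 CPM in 46 TA cells and 566 CPM in 20 WT cells. KO and WT cells differed by a smaller factor within G1 and within G2M than over all dark zone cells, and by a larger one within S. The value within S rests on the 2 KO cells. There 8 of 9 genes were at least 2-fold lower in KO, against 63.3% of all genes. The median log2 ratio over all genes was -3.82. The G1 sums rest on few detections. Of 38 WT cells in G1, 1 held a Palb2 count and 1 a Bard1 count, and no other gene was detected. The part of the phase shares in the difference between genotypes was not tested. Within S cells, Brca2 had 135.6 CPM in TA and 6.69 CPM in WT cells, whereas Brip1 had 119.2 CPM in TA and 115.4 CPM in WT cells.

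Marker levels also differed between the genotypes. The 6 plasma cell markers summed to 5882 CPM in KO dark zone cells (6 of 6 above 0), 2208 CPM in TA cells (4 of 6) and 2756 CPM in WT cells (5 of 6). The T cell markers summed to 350 CPM in KO, 116.5 CPM in TA and 106.2 CPM in WT dark zone cells, with 8, 6 and 7 of the 8 in the table above 0. The median percent of a cell's counts in mitochondrial genes, as deposited, was 10.8% in KO, 5.94% in TA and 6.93% in WT dark zone cells, and 10.4%, 5.43% and 6.52% in KO, TA and WT light zone cells. The part of the markers and of the mitochondrial percent in the difference of the recombination genes was not tested.

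In the light zone KO cells were again lower than WT cells. Rad54l had 37.8 CPM in KO and 112.3 CPM in WT cells, Rad51ap1 19.5 CPM in KO and 93.8 CPM in WT cells, and Brip1 27.8 CPM in KO and 113.5 CPM in WT cells. Each of these genes was lower in KO on all 4 plates. Brca1 had 14.5 CPM in KO and 73.5 CPM in WT cells, Brca2 29.7 CPM in KO and 98.8 CPM in WT cells, and Palb2 5.16 CPM in KO and 13.7 CPM in WT cells. The log2 ratios of the remaining genes were 0.71 for Bard1, -0.29 for Xrcc2 and -0.33 for Rad54b. At 2-fold 6 of 9 genes were lower (17.5% of all genes) and 0 higher (21.5%), with a median log2 ratio of -1.55. The median was -2.14 without plate 3 and -1.08 without plate 4. Cells called G1 made up 73.8% of KO and 36.6% of WT light zone cells, and within G1 the 9 genes summed to 62.5 CPM in KO and 50.9 CPM in WT cells. Within S they summed to 620 CPM in 9 KO cells and 951 CPM in 18 WT cells.

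TA light zone cells numbered 22 and were uneven between plates. Rad54l had 127.4 CPM in TA and 112.3 CPM in WT cells, Rad51ap1 91.3 CPM in TA and 93.8 CPM in WT cells, and Brip1 10.7 CPM in TA and 113.5 CPM in WT cells. Brip1, of which 1 of 22 TA cells held a count, was lower in TA on all 4 plates. Brca1 had 0.273 CPM in TA cells, from 1 cell with a count, and 73.5 CPM in WT cells. Bard1 had 15.6 CPM in TA and 2.90 CPM in WT cells. The log2 ratios of the remaining genes were -0.37 for Brca2, 0.26 for Palb2, -0.83 for Xrcc2 and 0.03 for Rad54b. At 2-fold 1 gene, Bard1, was higher (19.7% of all genes) and 2, Brca1 and Brip1, were lower (27%), with a median of -0.04. The median was -1.65 without plate 4 and -0.69 without plate 1.

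WT cells of the dark zone were also compared with WT cells of the light zone in experiment 5, a comparison added after the data were seen and not tested. The 9 genes summed to 326.4 CPM in dark zone cells, against 589 CPM in light zone cells. At 2-fold 2 of 9 genes were higher in the dark zone (17.2% of all genes) and 5 were lower (15.1%), with a median log2 ratio of -1.12 over all cells and of -0.91 to 0 on the 4 plates. Brca2 stood at 7.74 CPM in dark zone cells, against 98.8 CPM in light zone cells, and was lower in the dark zone on all 4 plates. On plate 3 it was near 0 in both zones, with 0 CPM in dark zone and 0.834 CPM in light zone cells. Brip1 stood at 40.5 CPM in dark zone cells, against 113.5 CPM in light zone cells, and was also lower on each plate. Bard1 went the other way, with 53.3 CPM in dark zone cells, against 2.90 CPM in light zone cells. The log2 ratios of the remaining genes were -1.12 for Brca1, 1.40 for Palb2, -1.80 for Rad51ap1, -0.91 for Rad54l, -1.23 for Xrcc2 and 0.36 for Rad54b. Cells called G1 made up 46.3% of the dark zone cells and 36.6% of the light zone cells.

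Over the 17 sums of Dec+ cells of experiments 1, 3 and 4 (experiment means removed), the genes whose profile was most like the mean profile of the 9 genes were Stn1 (Pearson's r = 0.80), Suv39h1 (0.80), Cdc25c (0.79), Bsdc1 (0.79), Asf1b (0.78), Larp7 (0.77), Dnajc9 (0.76) and Mad2l1 (0.76), out of 6174 genes with at least 20 CPM. These values are descriptions over sums that share experiments and phase shares. Among themselves the 9 genes were weakly related over the same sums, with a median r of 0.07 over 36 pairs and a range from -0.51 to 0.66.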

How the data were processed

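The deposited tables held expected counts per gene and cell as the authors estimated them, without normalization. Seurat 3.1.4, RSEM 1.3.1, STAR 2.6 and the mm10 build appear in the submitters' processing notes, with no role given. Cell tables deposited beside them list the authors' phase call, S and G2M scores, the mitochondrial percent, and the sort intensity of FUCCI and surface markers. The phase call, zone flags, FUCCI intensity and mitochondrial percent were used here. The 255 columns of experiment 2 could not be assigned to wells and were not used, nor were 10 kept cells without a zone. The dark zone cells of experiment 1 are at 30 h in the labels and at 36 h in a deposited group column. Groups not sized in the results held 166 (Dec+ light zone cells of experiment 1) and 101 cells (TA dark zone cells).

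Expected counts were summed over cells per experiment, time and zone, then rounded to whole numbers, keeping sums of 10 or more cells. After filterByExpr and TMM scaling, the quasi-likelihood test was run with edgeR 4.0.16 (limma 3.58.1, R 4.3.3), with Benjamini-Hochberg adjustment over all genes tested and a threshold of 0.05. The zone test took the pair of experiment and time as block (7 pairs, 6 residual degrees of freedom), so its replicates come from experiments 3 and 4 alone. The time test took experiment as block (7 residual degrees of freedom), and the test within phases too (5). Sums of the same experiment deviated together with r between 0.056 and 0.383 over 43 pairs of sums (median 0.126), so experiments were kept as block. DESeq2 1.42.0 was an alternative. The steps were tested on simulated data. Comparisons in experiment 5 and of Dec status had 1 experiment per group and no test. Ratios there are log2 of CPM with 1 CPM added, and all genes means genes of at least 10 CPM in either group. Full-length reads without molecular identifiers are not independent molecules.

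The members, gene lists and tests were chosen with earlier results of these data known. The rule for named genes took all 9 members in every comparison, and of the wider list those that passed a test and the 3 with the largest zone difference. No gene of the wider list passed. Exo1, Mus81 and the S over G1 ratio of Rad51d were chosen after their values were seen. Some results of the marker and pathway lists are not reported here. Python 3.11.15, numpy 2.4.6, pandas 2.3.3, scipy 1.17.1 and matplotlib 3.10.9 were used.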

Additional observations from a re-analysis of the deposited data

Results flagged for a closer look

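Of 18 groups of 7 or 8 sums (9 genes in 2 zones), 5 held a sum far from the rest, each time the highest. Such sums can rest on 1 cell, so this count is not set against a chance rate. Brca2 reached 144.1 CPM in the light zone of experiment 4 at 12 h, where the median of the light zone sums was 25.3 CPM; 6 cells held counts and 1 of them 47.5% of these. Bard1 reached 72.7 CPM in the light zone of experiment 3 at 46 h, all from 1 cell, with a median of 5.80 CPM. Bard1 also reached 52.6 CPM in the dark zone of experiment 4 at 46 h, with a median of 15.4 CPM. Palb2 reached 35.8 CPM in the dark zone of experiment 4 at 60 h (median 12.5 CPM), and Rad54b 50.6 CPM in the dark zone of experiment 4 at 12 h (median 24.5 CPM).

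For 3 of the 9 genes both experiments moved one way in the dark zone and the other way in the light zone. After 12 h, only 30 and 46 h had both zones with at least 10 cells in both experiments. The share of all genes with this pattern was not computed, so the count is not read as a result. For Brca2 at 46 h against 12 h the mean log2 change was 1.23 in the dark zone and -1.47 in the light zone. The light zone value includes the sum of experiment 4 at 12 h, of whose Brca2 counts 1 cell held 47.5%. For Palb2 at 30 h against 12 h it was 0.36 in the dark zone and -0.34 in the light zone, and for Rad54l at 30 h against 12 h it was 1.01 in the dark zone and -0.39 in the light zone. The difference between the zones was not tested.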

How the results depend on the processing

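The count of 0 of 9 genes held in all 10 tested comparisons under every alternative run, except DESeq2, which called 1 gene at 46 h in the light zone (Rad51ap1) and 1 within G1 (Rad54b). Small zone differences changed sign. Brca1 was at 0.29 with at least 20 cells per sum, 0.024 with no replicate block and 0.14 with the mean CPM per cell; Brca2 at -0.47, -0.31 and -0.15 under these, and at -0.10 without cells flagged for both zones. Rad51ap1 was at 0.16 with at least 20 cells and 0.014 without cells of both zones, and Xrcc2 at 0.094 with the mean CPM per cell. Leaving out an experiment or a pair gave -0.22 to 0.17 for Brca1, -0.20 to 0.42 for Brca2, -1.19 to 2.38 for Bard1, -0.41 to 0.13 for Rad51ap1, -0.66 to 0.084 for Rad54l and -0.81 to 1.01 for Xrcc2. The cause was not tested. Dec+ against Dec- gave 0.38 for Brca2 with the mean CPM per cell, and a median of -0.13 to 0.72 without a plate; KO against WT in the light zone gave -2.14 to -1.08. The mean over experiments of the median S over G1 ratio was 3.62, 3.34 with the mean CPM per cell and 4.31 in dark zone cells alone. Over all genes DESeq2 called more: 4.67% of them in the zone test (0.309% by edgeR), 0.78%, 1.17% and 0.84% at 30, 46 and 60 h in the dark zone (0% each), 1.01%, 9.04% and 5.18% in the light zone (0%, 0.472% and 0.12%), and 3.56%, 1.53% and 2.56% within G1, S and G2M (0.0186%, 0% and 0%). With no replicate block the zone test called 1 gene, and none of the 9. Some alternatives were not run, for want of residual degrees of freedom or sums. These were the tests within phases without experiment 3 or 4, and within G2M with at least 20 cells. Also not run were light zone 46 h with at least 20 cells, where DESeq2 called Rad51ap1, and light zone 60 h without experiment 3. Depth limits single genes: sums under 25 cells can rest on 1 cell.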

Other observations

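Among the other genes of the pathway, S cells stood above G1 cells for 33 of 41, 31 of 41, 35 of 40 and 32 of 39 genes with at least 10 CPM in experiments 1, 3, 4 and 5, with median log2 ratios of 0.99, 0.84, 0.89 and 1.34. Of all genes with at least 10 CPM, 51.3%, 50.2%, 46.5% and 45.7% were higher in S than in G1 in these experiments. Exo1, which encodes a resection nuclease, was below 3 CPM in G1 in all 4 experiments and at 103.2, 89.9, 85.1 and 65.5 CPM in S. It is in the S phase list that Seurat ships. Mus81, which encodes a nuclease that cuts joint molecules, went the other way. It had 40.6, 10.3 and 18.5 CPM in G1, S and G2M cells of experiment 1, 52.3, 32.1 and 48.7 CPM in experiment 3, 61.7, 35.7 and 46.8 CPM in experiment 4, and 38.2, 6.78 and 32.3 CPM in experiment 5. Rad51d was also lower in S than in G1 in all 4 experiments. These genes were picked for their ratios and carry no test.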
